A study of Rattus norvegicus with 9 samples.

Results

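Telomerase RNA (Terc), the protein subunits of telomerase and 3 shelterin proteins were followed in rat kidneys taken after warm ischaemia. Terc, Tert, Dkc1, Nop10, Nhp2, Gar1, Terf1, Terf2 and Tinf2 were found by their gene names in the raw array files, and these 9 of 26115 gene names were read by 10 of the 30367 gene probes. Terc was chosen by the values that it has in this same contrast, being low in the MSC-perfused kidneys, so its values are a description and carry no test. The other 8 members were taken for their role.

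Each array measured RNA from 1 rat kidney, labelled and read in a single colour. The 5 kidneys called NP had 20 min. of warm ischaemia. The 4 kidneys called MSC had the same ischaemia and were then perfused for 4 hrs at 4°C with Belzer solution (BS) that held 3000000 mesenchymal stromal cells, which had been expanded from the bone marrow of rats carrying an EGFP transgene. The labels of the NP kidneys disagree, since their treatment field says that they were not perfused while their titles name 4 hrs in BS. They are called NP here, as in the study, and the groups then differ in the perfusion as well as in the cells, whose parts cannot be told apart. The age of the rats was not given in the sources used here, and an MSC array discarded by the study was not analysed here.

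Telomerase extends chromosome ends by copying a template within Terc with the reverse transcriptase Tert. Terc ends in a box H/ACA domain, the fold of the RNAs that guide pseudouridine formation, and is held there by the proteins Dkc1 (dyskerin), Nop10, Nhp2 and Gar1, of which dyskerin, Nop10 and Nhp2 are needed for the RNA to accumulate. Shelterin is the protein complex that covers the telomeric repeats: Terf1 and Terf2 bind the duplex repeats and Tinf2 links them. Most cells of the adult kidney divide rarely, and in rodents Tert can be expressed in resting tissue.

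The probes of Terc, Tert, Dkc1 and Terf2 are shown because the results turn on what they match: the RNA itself, the reverse transcriptase, and the 2 protein genes that were lower in the MSC arrays at an unadjusted p under 0.05. They were read from the array files, which give positions on rn4. The capitals in the Terc probe mark TGAG, the letters of the CAB box, a short motif by which human telomerase RNA binds Wrap53.
Terc, bases 302 to 361 of the transcript: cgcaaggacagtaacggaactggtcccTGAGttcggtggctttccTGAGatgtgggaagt
Tert, bases 2368 to 2427: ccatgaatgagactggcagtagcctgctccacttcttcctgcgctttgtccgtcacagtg
Dkc1, bases 1335 to 1394: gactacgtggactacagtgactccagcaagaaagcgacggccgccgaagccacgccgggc
Terf2, bases 866 to 925: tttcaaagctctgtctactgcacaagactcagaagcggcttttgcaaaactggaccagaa

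The Terc probe lies at chr2:117234748-117234807 on the plus strand, within the noncoding Terc gene, whose length in RefSeq is 388 bases. It therefore reads the end of the RNA that holds the H/ACA domain and not the template. TGAG was searched for on the probe's own strand, and occurs at bases 28 and 46 of the probe. Of all gene probes 26.7% hold these letters at least once and 3.8% hold them more than once, and a match is not evidence of a site. The Tert probe lies at chr1:30453702-30453761 and the Terf2 probe at chr19:36939357-36939416, both on the minus strand. The files give no position for the Dkc1 probe. GC content was 55% for the Terc and Tert probes, 65% for Dkc1 and 45% for Terf2, against a median of 45% over all gene probes.

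The kidney label was checked against marker genes. All 10 kidney tubule markers passed the filter, and their summed intensity was 1220000 to 1580000 on the NP arrays and 1460000 to 1840000 on the MSC arrays. Of these markers 8 were higher and 2 lower in MSC, and 3, all of them transporters of the tubule, had an unadjusted p under 0.05, a limit that 11.8% of all genes tested passed: Slc5a2 (log2 fold change 0.44, with every MSC array above every NP array, where 5.32% of all genes did not overlap in either direction), Slc12a3 (0.59) and Slc12a1 (0.50). The arrays lay on 2 slides: 3 NP and 2 MSC arrays on slide 1, and 2 NP and 2 MSC arrays on slide 2. The median raw intensity ranged from 577 to 917, with NP 2, MSC 2 and MSC 4 the dimmest. Markers of other cell types were counted in the same way, and 0 of their genes had an FDR under 0.05 (lowest 0.333). All 6 fat markers that passed the filter were higher in the MSC arrays, with summed intensities of 5500 to 12800 in NP and 6020 to 79000 in MSC, while both red cell genes that passed were lower, with sums of 15000 to 36300 and 1490 to 25000. Of the 7 mesenchymal stromal markers 5 were higher in MSC, and of the 6 leukocyte markers 4 were. At an unadjusted p under 0.05 there were Adipoq (1.43) and Cidec (0.36) of the fat list, Alas2 (-1.74) and Hbb (-1.68) of the red cell list, and Col1a1 (1.06) and Vim (0.43) of the stromal list, where every MSC array was above every NP array for Vim. Hbb was at -0.85 without MSC 1 and at -1.01 by its brightest probe, with an unadjusted p above 0.05 in both, and Alas2 was at -1.11 without MSC 1. Adipoq was at 0.91 without MSC 3, and at 0.27 within slide 1 and 2.71 within slide 2. The 3 podocyte markers that passed were lower, and of the 4 endothelial markers 2 were higher and 2 lower. Plin1 and Lep of the fat list, and Thy1 and Itga5, which mark stromal cells, did not pass the filter. The part of these cells in the values below was not tested, and in whole tissue fewer cells of a type and less RNA per cell cannot be told apart.

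Terc was lower on every MSC array than on any NP array. Its normalized log2 intensity was 10.18, 10.02, 10.58, 10.19 and 9.66 in NP kidneys 1 to 5, and 9.19, 9.06, 9.50 and 9.48 in MSC kidneys 1 to 4. NP 3 was the highest and MSC 2 the lowest, and 0.16 separated the lowest NP kidney from the highest MSC kidney. The means were 10.13 ± 0.33 (S.D., n = 5) and 9.31 ± 0.21 (n = 4), a log2 fold change of -0.82 (S.E. 0.17), or 0.57 of the NP level. Of the 13764 genes tested, 297 (2.16%) were lower on every MSC array in this way, and 33, Terc among them, had a log2 fold change at least as low. The central 90% of all genes lay between -0.34 and 0.33.

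The Terc probe was printed at 2 spots on each array, and all of them were well above background. The spots of an array differed by 0.03 to 0.34 (median 0.20) on the log2 scale. The first spot gave a log2 fold change of -0.76 and the second -0.88, with no overlap between groups at either. Before normalization the groups did overlap: the raw intensity was 773 to 1350 in NP and 429 to 941 in MSC, and NP 2, a dim array, was at 773 while MSC 3, the array of the highest median, was at 941. Among the 3 dimmest arrays NP 2 was at 773, MSC 2 at 429 and MSC 4 at 542. The difference was -1.13 within slide 1 and -0.44 within slide 2. The sign was the same on both slides.

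**Figure D1:**
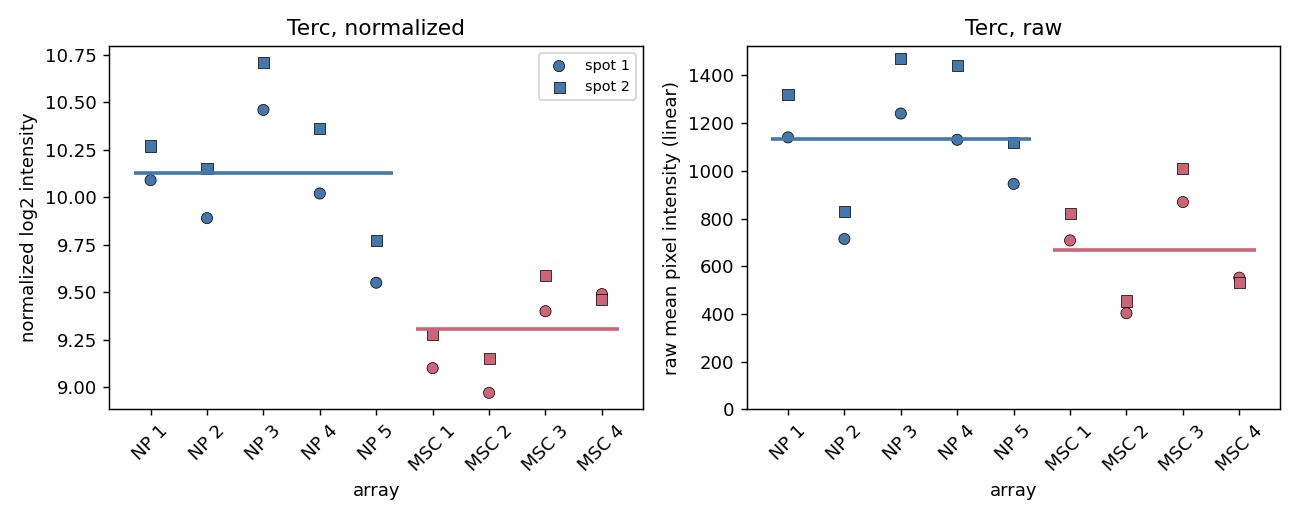
Terc on each of the 9 arrays, as normalized log2 intensity (left) and raw intensity on a linear scale (right), with circles and squares for the 2 spots, blue for NP, red for MSC and lines for the group means. After normalization every MSC array lies below every NP array at each spot, whereas the raw values of NP 2 (773) and MSC 3 (941) cross.

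Tert, the reverse transcriptase, was at the limit of the array in both groups. Its normalized log2 intensity was 8.25, 8.77, 8.33, 8.21 and 8.26 in NP and 8.35, 8.23, 8.20 and 8.23 in MSC. The filter limit of the arrays, set from the negative controls, was 8.75 to 8.87. Only NP 2 exceeded it, so that Tert did not pass the filter, which asks for 4 arrays, and it was left out of the test. At least 1 of its 2 spots was well above the local background on all 5 NP arrays and on 2 of 4 MSC arrays. No difference between the groups is given for a probe so close to the negative controls.

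The 7 other members that passed the filter, all of them encoding proteins, differed in both directions. None had an FDR under 0.05, as was so for all genes (0%), and their FDR ran from 0.345 to 0.788. At an unadjusted p under 0.05 there were 3 of 7, Terf2 and Dkc1 lower and Terf1 higher, where the same limit took in 11.8% of all genes tested. The count was 0 without MSC 4, 1 without MSC 3 and 1 with 75th percentile scaling. Of the 7, 5 were lower and 2 higher in the MSC arrays, with a median log2 fold change of -0.12 against -0.01 for all genes. The arrays of the groups did not overlap for 1 of the 7, Terf2, and for 5.32% of all genes in either direction.

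Among the H/ACA proteins Dkc1, the pseudouridine synthase that holds the RNA, differed most. Its values were 13.92, 14.84, 14.36, 14.36 and 14.22 in NP and 14.10, 13.95, 13.83 and 13.75 in MSC. NP 1 lay within the range of the MSC kidneys, while the other 4 NP kidneys lay above all of them. The means were 14.34 ± 0.33 and 13.91 ± 0.15, and the log2 fold change was -0.43 (95% interval -0.80 to -0.07, FDR = 0.384), or 0.74 of the NP level. The highest value was that of NP 2, and without this array the difference was -0.31. Without MSC 3 it was -0.40 (FDR = 0.600) and without MSC 4 -0.38 (FDR = 0.586), and its unadjusted p was then above 0.05.

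Nop10, the smallest of the H/ACA proteins, was read by 2 probes at chr3:98105431-98105490 and chr3:98105518-98105577, both on the plus strand. The first ranged from 15.49 to 15.79 (median 15.58) in NP and from 15.36 to 15.53 (median 15.50) in MSC, with a log2 fold change of -0.12 (95% interval -0.31 to 0.07, FDR = 0.586). The second gave -0.07 (FDR = 0.739 over probes). The probes gave the same sign, and both were highest in NP 1 and lowest in MSC 4.

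Nhp2, which binds the RNA beside Nop10, has a probe of 60 bases that spans 2180 bases of the genome, at chr10:37137663-37139842. It ranged from 13.10 to 13.47 in NP and from 13.10 to 13.22 in MSC, and the log2 fold change was -0.12 (95% interval -0.32 to 0.08, FDR = 0.625). The ranges shared their lowest value.

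Gar1, the subunit that joins late in assembly in place of Naf1, went the other way. It ranged from 9.94 to 10.54 in NP (median 10.03) and from 10.10 to 10.41 in MSC (median 10.28), a log2 fold change of 0.15 (95% interval -0.14 to 0.44, FDR = 0.668). NP 2 stood above every other kidney of either group. Without it the difference was 0.25 (FDR = 0.409) with an unadjusted p under 0.05, as it also was with array weights (0.25).

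In shelterin, the duplex-binding pair Terf1 and Terf2 went in opposite directions. Terf2, which protects the telomere loop and chromosome ends from fusion, was 9.47, 10.25, 9.83, 9.70 and 9.55 in NP and 9.46, 9.46, 9.19 and 8.78 in MSC. Every MSC kidney was below every NP kidney, but NP 1 and the closest MSC kidneys were less than 0.01 apart, and MSC 4 was under its filter limit of 8.85. The means were 9.76 ± 0.31 and 9.22 ± 0.32, and the log2 fold change was -0.54 (95% interval -0.95 to -0.12, FDR = 0.345), or 0.69 of the NP level. It was -0.42 without NP 2, -0.40 without MSC 4 (FDR = 0.570) and -0.50 when arrays were scaled to their 75th percentile (FDR = 0.642). In the last 2 of these its unadjusted p was above 0.05. From the background-subtracted processed signal it was -1.15 (FDR = 0.517). The lowest kidneys for Terf2, MSC 3 and MSC 4, were also the highest for the fat gene Adipoq (adiponectin). It was at 13.83 and 12.63 on the log2 scale, against 10.44 to 11.78 on the other 7 arrays. These 2 kidneys were also the lowest for Dkc1 and the highest for Terf1. On slide 1, which holds neither kidney, Terf2 differed by -0.39, Dkc1 by -0.35, Terf1 by 0.16 and Adipoq by 0.27. MSC 3 and MSC 4 are the MSC kidneys of slide 2, so fat RNA and slide cannot be told apart here. Neither was tested as a cause.

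Terf1, which restrains telomere lengthening by binding along the repeats, was 9.81, 10.17, 10.21, 10.22 and 10.10 in NP and 10.25, 10.18, 10.60 and 10.49 in MSC. The groups overlapped through MSC 2, and NP 1 was the lowest kidney. The means were 10.10 ± 0.17 and 10.38 ± 0.19, with a log2 fold change of 0.28 (95% interval 0.01 to 0.54, FDR = 0.413), or 1.21 times the NP level. Its unadjusted p was under 0.05 in 16 of 24 alternatives. It was above without NP 1 (0.20), NP 5 (0.28), MSC 3 (0.20) or MSC 4 (0.24), and with 75th percentile scaling (0.31), median scaling (0.28), the processed signal (0.36) or array weights (0.20).

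Tinf2, the link between them, lay between 10.03 and 10.23 in NP and between 10.00 and 10.20 in MSC. Its log2 fold change was -0.06 (95% interval -0.24 to 0.11, FDR = 0.788). The remaining shelterin genes were not members and were near 0: Terf2ip (Rap1, the partner of Terf2) gave 0.05, Acd (Tpp1, which recruits telomerase) 0.03, Pot1 -0.02 and Pot1b, both of which bind the single strand, 0.07, with an FDR of 0.817 or more.

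**Figure D2:**
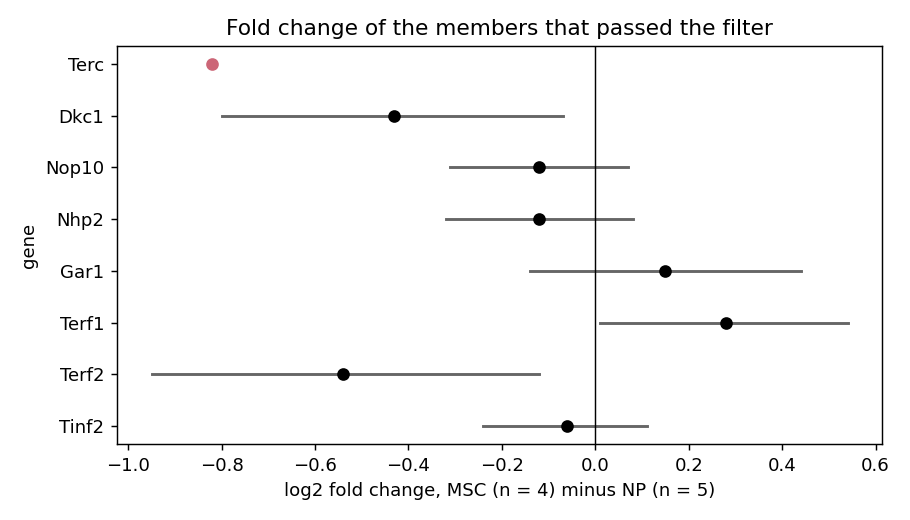
Log2 fold change of MSC (n = 4) against NP (n = 5) for the 8 members that passed the filter, with 95% intervals from limma for the 7 tested and a point alone for Terc (-0.82), which was chosen on this value. The intervals of Dkc1, Terf1 and Terf2 leave out 0 before adjustment, and those of Nop10, Nhp2, Gar1 and Tinf2 span it.

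The direction of each member that passed was the same on both slides. The differences on slide 1 and slide 2 were -0.35 and -0.50 for Dkc1, -0.13 and -0.08 for Nop10, and -0.17 and -0.03 for Nhp2. For Gar1 they were 0.18 and 0.15, for Terf1 0.16 and 0.38, for Terf2 -0.39 and -0.64, and for Tinf2 -0.03 and -0.12. On slide 2 Terf2 and Dkc1 were further from 0 than Terc. Terc was the member furthest apart between slides, and whether the slides differ was not tested. Single arrays stood at the ends of several members: NP 2 was the highest for 4 of 10 probes and MSC 4 the lowest for 5 of 10.

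**Figure D3:**
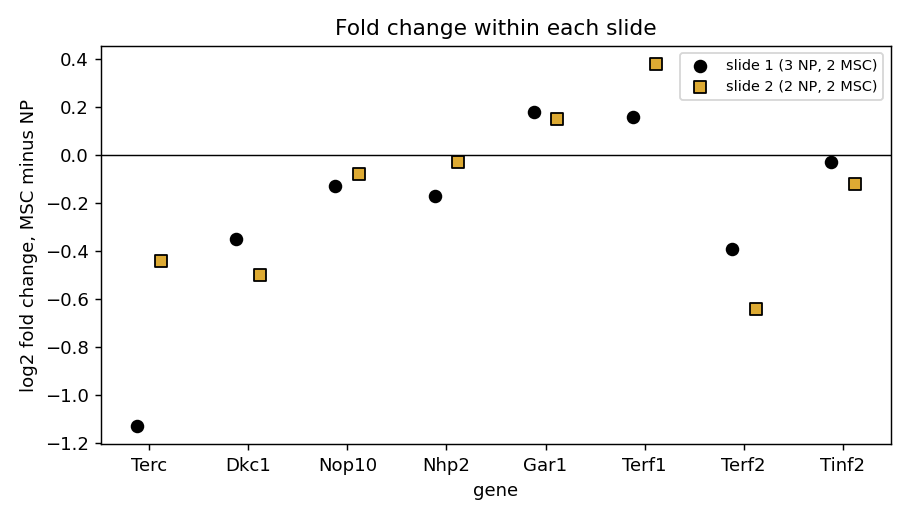
Log2 fold change of MSC against NP within slide 1 (3 NP, 2 MSC; black circles) and slide 2 (2 NP, 2 MSC; yellow squares), without a test. Each member keeps its sign on both slides, and Terc runs from -1.13 to -0.44.

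Terc was set beside the other members and all genes by Pearson's r over the 9 arrays, as a measure of likeness only. After the mean of each group was subtracted, r with Terc was -0.15 for Dkc1, 0.00 for Nop10, 0.01 for Nhp2 and -0.45 for Gar1. It was 0.43 for Terf1, -0.17 for Terf2 and -0.31 for Tinf2. For the 4 H/ACA proteins it was thus at or below 0.01. Over all arrays, group difference included, the genes most like Terc were Nudt22 (0.957), Cdkn2d (0.951), which encodes an inhibitor of cyclin-dependent kinases, Tmem108 (0.933), Eif4ebp3 (0.920), a repressor of translation, and RGD1563378 (0.918). The genes most unlike it were LOC679038 (-0.976), the unnamed probe A_44_P959355 (-0.954), LOC366365 (-0.952), Kcnj16 (-0.949), a potassium channel of tubule cells, and Trpv5 (-0.948), the calcium channel of the distal tubule, whose mean of 8.64 in NP was under the filter limit. After subtraction of the group means they were Nudt22 (0.849), LOC688776 (0.845), Mettl18 (0.841), Tfap4 (0.840) and A_64_P087459 (0.836) at the high end, and Trex1 (-0.926), LOC679038 (-0.912), Mnt (-0.909), Ptpn3 (-0.897) and Pard6b (-0.885) at the low end. Nudt22 and LOC679038 were in both lists. All these values share the arrays and their normalization.

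Genes near Terc on chromosome 2 were of either sign. Of the genes with a probe within 500 kb, the closest, Actrt3 at 15.5 kb, did not pass the filter, nor did Lrrc34, Lrrc31, Samd7 and Phc3. Mynn, a zinc finger gene 35.2 kb away, had a log2 fold change of 0.00 (FDR = 0.999). The 2 Prkci probes gave -0.07 and -0.14, Sec62 gave 0.21 (FDR = 0.773) and Mecom 0.08 (FDR = 0.759). Gpr160, an orphan receptor gene 330 kb away, was higher in MSC by 0.61 (S.E. 0.17, FDR = 0.332), the opposite sign to Terc.

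Genes around telomerase were then counted in 9 wider lists: those for its assembly and for the processing and decay of its RNA, the telomere lists, transcription factors, and lists set beside them for comparison (box C/D proteins, other noncoding RNAs, histones and proliferation). Of 89 genes tested, 47 were higher and 42 lower. An unadjusted p under 0.05 was found for 7 (7.87%), below the 11.8% of all genes, and 0 had an FDR under 0.05 by limma. Snhg11 is counted among the 42 and the 7. Its probe was under the filter limit in all MSC kidneys and passed through NP kidneys alone, so its test is not read. The lowest FDR of the other genes was 0.390. Of the 11 assembly genes 7 were higher and 4 lower with a median of 0.01. They include Wrap53, which brings Terc to Cajal bodies (0.01), Naf1 (0.02) and Shq1 (0.06), which precede Gar1 on the complex, and none had a p under 0.05. The smallest p was that of Nvl, an ATPase found with telomerase (-0.17, FDR = 0.463).

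The RNA processing and decay list, with the exosome, its adaptors and the enzymes that tail and cap Terc, had 8 genes higher and 3 lower among 11 tested, with a median of 0.02. None had a p under 0.05. Rbm7, which hands noncoding RNA to the exosome, came closest (0.20, FDR = 0.498), and the poly(A) polymerase Papd5, which marks Terc for decay, was at 0.09 (FDR = 0.852). Parn, the nuclease that removes those tails, did not pass the filter. In the CST and primase list, which fills in the opposite strand, 2 of 5 genes were higher and 3 lower, led by Prim1 (0.13, FDR = 0.541). Telomere replication and repair had 5 higher and 6 lower of 11, with Xrcc5 (Ku80, a DNA end-binding protein that also binds telomerase RNA in some species) at 0.16 (FDR = 0.424).

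Of 11 transcription factors known at the Terc or Tert promoters 4 were higher and 7 lower, with a median of -0.11. Nfyc, a subunit of the CCAAT-binding factor NF-Y, was higher (0.22, FDR = 0.390), its partner Nfyb was at -0.13 (FDR = 0.692), and Sp1 was at -0.26 (FDR = 0.440). Dividing cells were read by 13 proliferation genes. All 13 were higher in MSC, by a median of 0.14, where 6687 of all 13764 genes tested were higher. The NP means of Mcm6 (8.67) and Mcm5 (8.70) were under the lowest filter limit, 8.75, so the filter could favour their direction. Only Top2a, the topoisomerase of mitotic chromosomes, had a p under 0.05 (0.29, FDR = 0.413). Of the 20 histone genes of S phase, whose messages like mature Terc carry no poly(A) tail, 16 were lower and 4 higher, with a median of -0.14. Hist1h2bk was the gene with p under 0.05 (-0.26, FDR = 0.406).

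Box C/D proteins, which serve the other class of guide RNAs, split. Nop56 (-0.26, FDR = 0.390) was lower on every MSC array than on any NP array, as were 2.16% of all genes tested. Its difference was -0.37 on slide 1 and -0.12 on slide 2, and its unadjusted p was under 0.05 in 18 of 24 alternatives. Nop58, Fbl and Nhp2l1 were at 0.20, 0.07 and 0.02. Of the noncoding RNAs 3 passed the filter. Rmrp, the RNA of ribonuclease MRP, which has been found bound to Tert, was 13.91, 15.52, 15.51, 15.29 and 14.19 in NP and 13.52, 13.69, 13.87 and 14.59 in MSC. The groups overlapped through NP 1, NP 5 and MSC 4. Its log2 fold change was -0.97 (S.E. 0.38, FDR = 0.390), with -1.38 on slide 1 and -0.51 on slide 2. Gas5 was at 0.04. The more variable probe of Snhg11 was at 8.61, 11.65, 10.19, 10.01 and 10.00 in NP and at 8.47, 8.66, 8.20 and 8.76 in MSC, so that it passed the filter through 4 NP kidneys and was under the limit on every MSC array. Its other probe gave a log2 fold change of 0.00. No fold or direction is read for this gene, although the counts above include it.

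**Figure D4:**
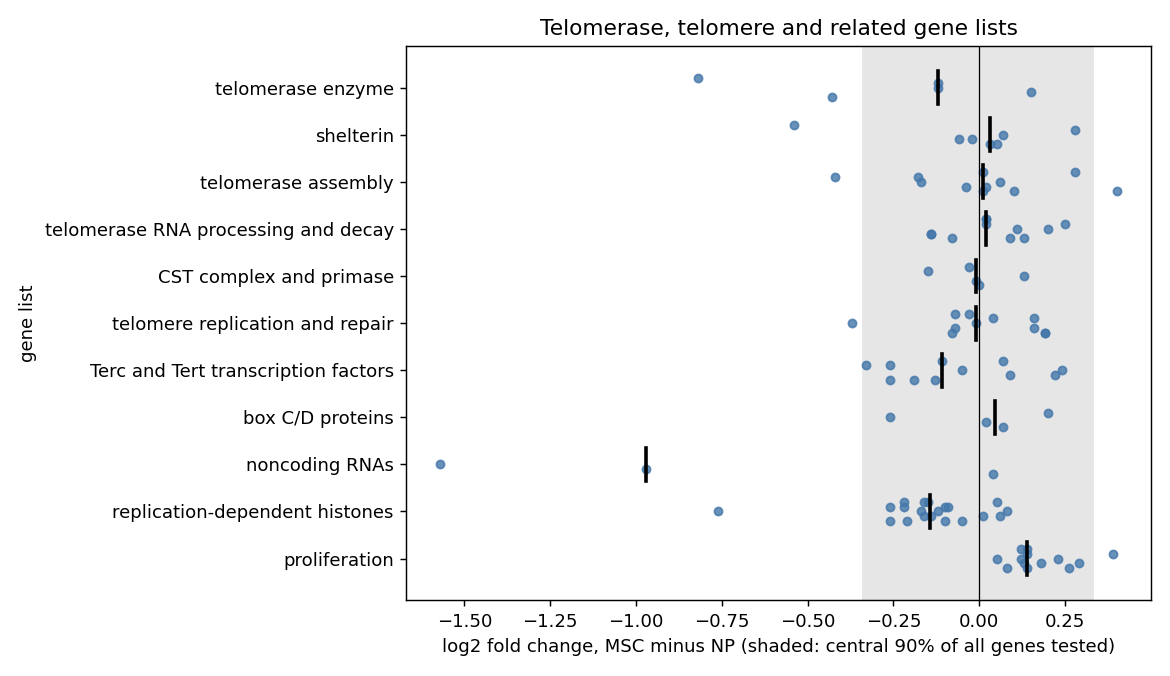
Log2 fold change of MSC against NP for every gene tested in the lists of telomerase, telomere and related genes, with a black line at the median of each list and grey shading over the central 90% of all genes (-0.34 to 0.33). Most points lie within the shading. Rmrp (-0.97), Terc (-0.82) and Hist1h1d (-0.76) lie to its left, as do Terf2 (-0.54), Dkc1 (-0.43), Pinx1 (-0.42) and Tnks2 (-0.37). Hsp90aa1 (0.40) and Mki67 (0.39) lie to its right. The leftmost point is the Snhg11 probe that was under the filter limit on every MSC array and has no measured fold.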

How the data were processed

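The authors deposited the Agilent Feature Extraction output of each array, from which the mean pixel intensity was taken without background subtraction, and a table of normalized log2 values. RNA had been amplified and labelled with the Agilent Low Input Quick Amp WT kit. Here intensities were log2 transformed and normalized by cyclic loess in limma 3.58.1 (R 4.3.3), with outlier spots left out and the 308 negative control spots kept for the filter. Over 15628 probes, r with the deposited log2 values was 0.99990 to 0.99997 per array.

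The wording of the study's filter has more than 1 reading. A probe was taken to pass when its log2 value exceeded 1.1 times the 95th percentile of the log2 negative controls on at least 4 arrays, which kept 15628 of 30367 gene probes and 9 of the 10 member probes. Spots were averaged, the probe of largest variance was kept per gene, and 13764 genes were tested by limma with moderated variances, MSC against NP, with Benjamini-Hochberg adjustment (FDR). No term for slide was used. An intensity has no meaning between probes, so levels were not compared between genes.

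The members and all gene lists were chosen with earlier results of these data known. All members were named. From each wider list every gene with an unadjusted p under 0.05 is given (at most 4), or else the gene of smallest p, and a few more genes were chosen after their values were seen. Neighbours were taken within 500 kb by the files' rn4 positions, and the 5 genes most and least like Terc by r. The accessions of 8 of the 9 members matched RefSeq (GRCr8), from which only names and the length of Terc were taken. Alternatives took other intensity columns, background corrections, normalizations, filters, probes, variance models, array weights, blocks and the deposited values, and left out each array in turn.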

Additional observations from a re-analysis of the deposited data

Results flagged for a closer look

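Dixon's gap test, in which the gap of the furthest kidney to its neighbour is divided by the range of its group, was applied to 10 probes in each of the 2 groups. It passed its 95% critical value for the size of the group in 5 of 20 groups. Chance gives about 1 in 20 independent groups. These groups are not independent, since they share arrays and the 2 Nop10 probes had an r of 0.91. The share over all probes was not taken, so the count is not read as an excess in these members. Tert was high in NP 2, with a gap of 0.796 of the range, and in MSC 1 (0.832), both within the dim range of that probe. Gar1 was high in NP 2 (0.735). Terf1 was low in NP 1 (0.711, against a critical value of 0.71). The Nop10 probe at chr3:98105518-98105577 was low in MSC 4 (0.868), in a group whose S.D. was 0.02.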

How the results depend on the processing

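Terc was not tested, and none of the other members had an FDR under 0.05 under any of 24 alternatives with a test, 9 of which left out an array, and neither did any member probe or wider list gene. The members with an unadjusted p under 0.05 were 3, but 2 with median scaling and with the processed signal, 1 with 75th percentile scaling and 0 to 4 when each array was left out, with 1 without MSC replicate 3 and 0 without MSC replicate 4. The share of all genes at that limit was 11.8%, and 6.07%, 9.59%, 7.84%, 8.68% and 8.77% in the 5 settings named. Terc kept its sign throughout: -1.17 from the background-subtracted processed signal, -1.13 within slide 1, -0.44 within slide 2, and -0.94 to -0.71 with an array left out. All the other members kept their signs in these settings. Terf2 was -1.15 from the processed signal.

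Of the other genes, Csf1r turned to -0.07 with the processed signal and Nphs1 to 0.07 within slide 1, and Snhg11, which ran from -1.95 to 0.32 with an array left out, went to 0.32 without NP replicate 2 and to 0.00 without NP replicate 5, where the other probe became the more variable. Over all genes, 850 had an unadjusted p under 0.05 with median scaling against 1619 in the analysis reported, and 2285 with array weights, where 2 genes had an FDR under 0.05. The kidneys were treated as unpaired. The deviations of same-numbered kidneys had r of 0.20, 0.33, -0.35 and 0.05, within the range of differently numbered kidneys (-0.35 to 0.40). These values cannot exclude a pairing. With a replicate block Terc was at -0.94 and 3 members had a p under 0.05.

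The precision is limited by 9 kidneys. It is also limited by intensities near the negative controls for Tert, for Terf2 in MSC 4 and for Snhg11 in all MSC kidneys. The same holds for the NP means of Mcm5, Mcm6 and Trpv5. Other causes of these changes were not tested.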
